A study of Mus musculus with 4 samples.

Results

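The lymphoma cells of a pBIC10 mouse were divided by the heavy-chain variable (V) segment with the most transcripts in each cell. Members were selected on their measured UMIs of Igkv3-1, Cd3e, heavy V segments and mitochondrial genes. A barcode, the tag of 1 droplet, was kept when it had at least 200 genes, under 10% mitochondrial UMIs (unique molecular identifiers, counts of captured transcripts), at least 10 UMIs of the light-chain segment Igkv3-1, no UMI of the T-cell gene Cd3e, and at least 3 UMIs of its most abundant heavy V segment. Of the 14991 barcodes in the pBIC10 gene expression library, 2132 met this rule, and 1952 of them were led by Ighv1-11, Ighv9-3 or Ighv9-1. The Ighv1-11-led group held 140 barcodes (7.17% of the 1952), the Ighv9-3-led group 512 (26.2%) and the Ighv9-1-led group 1300 (66.6%). A further 160 barcodes had tied leaders and were put in no group, 115 of them tied between Ighv9-3 and Ighv9-1 and 31 with Ighv1-11 among the tied segments. The remaining 20 were led by Ighv9-4 (9), Ighv9-2 (5), Ighv2-9 (3), Ighv1-85 (2) and Ighv1-14 (1).

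The series holds spleen cells of 1 pBIC10 mouse and 1 pBIC mouse, both female, each profiled by droplet 5' single-cell RNA sequencing together with a library enriched for T-cell receptor transcripts. Per the labels, cells were sorted so that the loaded suspension was 20% 7AAD- GFP+ lymphoma cells and 80% 7AAD- GFP- cells of the microenvironment. What sets the pBIC10 genotype apart from pBIC is not stated in the labels, and GFP is not among the 32285 measured features. All 3 groups come from the same library of the same mouse, so they differ in neither genotype nor handling, there is no replicate, and no test was made.

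The members had 43248713 UMIs in all, with a median of 19506 per barcode. Median depth was 14038.5 UMIs per barcode in the Ighv1-11-led group, 12702.5 in the Ighv9-3-led group and 23891.5 in the Ighv9-1-led group, and the median number of genes was 2951, 2799 and 4217.5 in the same order. Levels are given as CPM, a gene's UMIs scaled by the total of its group, and all intervals are 95% and cover counting error only. As a measure of free RNA, the same values are given where useful for 3411 T-cell barcodes of the same library, which had a T-cell receptor beta contig, at least 1 Cd3e UMI and under 10 Igkv3-1 UMIs.

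The members were checked against B-cell markers, which do not tell lymphoma cells from other B cells. The 8 markers together stood at 7563 CPM in the Ighv1-11-led group, 12384 in the Ighv9-3-led group and 11857 in the Ighv9-1-led group, against 1486 CPM in the T-cell barcodes. All 8 were detected in each group, but Cd74 alone, whose levels are given below, made up most of the sum in each. Only 2 members had a T-cell receptor contig, but the rule had already left out barcodes with a Cd3e UMI. Of the 1952 members, 581 (29.8%) had such a contig or more than 2 UMIs of Trac, Lyz2, S100a8 or Hbb-bs. These barcodes, described below as having markers of other cell types, were 41 Ighv1-11-led, 159 Ighv9-3-led and 381 Ighv9-1-led ones. They were kept. Scrublet called 2, 11 and 42 members of the Ighv1-11-led, Ighv9-3-led and Ighv9-1-led groups as doublets, and these were kept. The 2 libraries shared 712 barcode sequences. Of the members, 5 Ighv1-11-led, 19 Ighv9-3-led and 72 Ighv9-1-led barcodes were also found in the pBIC library, with a median of 33600.5 UMIs in pBIC10 and 776 in pBIC. The same rule applied to the pBIC library left 39 barcodes led by these segments, none by Ighv1-11, 22 by Ighv9-3 and 17 by Ighv9-1. All 39 of these barcode sequences also occurred in pBIC10, and their median depth in pBIC was 578 UMIs.

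Each B cell joins 1 heavy V segment to D and J segments, and its daughters inherit that rearrangement, so malignant B cells of 1 origin usually share a V segment. The constant region behind the V segment sets the antibody class: IgM comes first, and class switching can replace it by IgA, encoded by Igha. Jchain encodes the small protein that joins IgM or IgA units into polymers, and it is made mainly by cells on the way to antibody secretion. Ighv9-1, Ighv9-2, Ighv9-3 and Ighv9-4 belong to 1 family of closely related sequences, whereas Ighv1-11 belongs to another. In the RefSeq gene table for the mouse (assembly GRCm38.p6), Ighv9-1, Ighv9-2 and Ighv9-3 lie near each other on chromosome 12, separated by Ighv12-1 and Ighv12-2, and Ighv1-11 lies farther from the constant genes. How reads that match several V segments were counted is not given in the sources used here, so counting could split the transcripts of 1 rearrangement among the Ighv9 symbols. The leading symbol therefore does not by itself name the rearranged segment, and every Ighv9 value below is uncertain to that extent.

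Heavy V UMIs were mixed within each group. Since the leading segment chose the groups, these values describe the choice and support nothing further. In the Ighv1-11-led group, Ighv1-11 made up 48.3% of all heavy V UMIs, Ighv9-3 18.1%, Ighv9-1 20.5%, Ighv9-4 7.10% and Ighv9-2 5.73%. The Ighv9-3-led group had 9.64% Ighv1-11, 39.4% Ighv9-3 and 31.4% Ighv9-1. The Ighv9-1-led group had 8.81% Ighv1-11, 30.2% Ighv9-3 and 40.7% Ighv9-1. The leading segment thus held under 50% of the pooled heavy V UMIs of each group, and it held over 50% of a barcode's own heavy V UMIs in 64 Ighv1-11-led barcodes (45.7%), 102 Ighv9-3-led barcodes (19.9%) and 166 Ighv9-1-led barcodes (12.8%). All 3 segments were detected together in 103 (73.6%), 360 (70.3%) and 1069 (82.2%) barcodes of the Ighv1-11-led, Ighv9-3-led and Ighv9-1-led groups. Barcodes in which the other segments of the 3 were at 0 numbered 9, 16 and 15. The 2237 heavy V UMIs of the T-cell barcodes held the same symbols, at 9.79% Ighv1-11, 24.8% Ighv9-3 and 30.5% Ighv9-1, with 21.0% from symbols outside these and Ighv9-2 and Ighv9-4, against 0.291% outside them among all barcodes that met the rule.

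**Figure D1:**
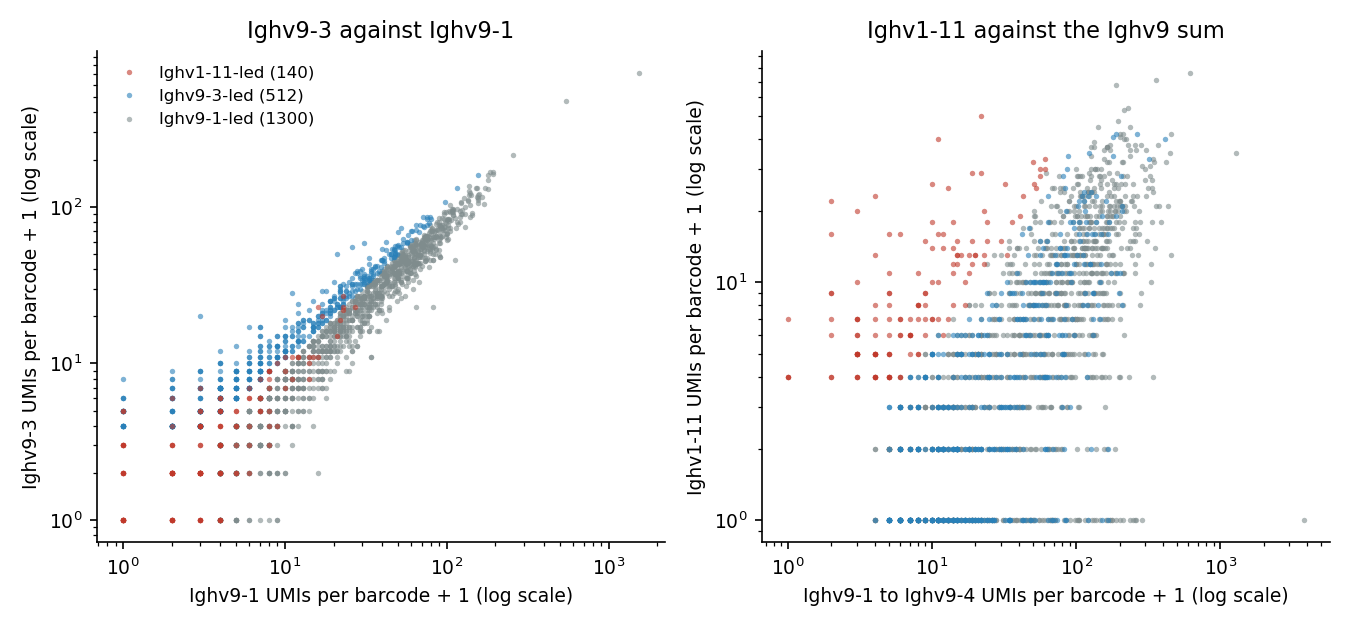
Heavy V UMIs of the 1952 barcodes, 1 point per barcode, on log axes after adding 1. The left panel plots Ighv9-3 against Ighv9-1 UMIs, where the Ighv9-3-led and Ighv9-1-led points form 1 band on either side of equality. The right panel plots Ighv1-11 UMIs against the sum of the 4 Ighv9 segments, where Ighv1-11-led barcodes lie at lower Ighv9 sums.

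Among the Ighv9 segments, barcodes differed from each other by about as much as counting alone gives. In the 1229 barcodes with at least 20 UMIs of Ighv9-3 and Ighv9-1 together, Ighv9-3 took 44.9% of the pooled UMIs of the pair, and the barcode's own 95% interval held that share in 1172 (95.4%). The share of Ighv9-2 among the 4 Ighv9 segments was held by the interval in 1292 of 1340 barcodes (96.4%), and that of Ighv9-4 in 1291 (96.3%). Ighv1-11 did not follow this: its pooled share of the UMIs of Ighv1-11 and the 4 Ighv9 segments was 9.60%, and the interval held it in 965 of 1419 barcodes (68.0%), with 209 barcodes below and 245 above. Among barcodes with at least 100 heavy V UMIs, the SD of the Ighv9-3 share of that pair was 5.18 percentage points where counting gives 4.74, and the SD of the Ighv1-11 share of heavy V UMIs was 5.52 points where counting gives 2.24.

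The leader also moved with the number of heavy V UMIs. Ighv1-11 led 17.3% of barcodes with 3 to 9 heavy V UMIs, 9.09% with 10 to 19, 8.37% with 20 to 49, 3.28% with 50 to 99 and none of the 558 with at least 100. Ighv9-3 led 31.8%, 31%, 26.4%, 23.5% and 13.1% of the same classes, and Ighv9-1 led 41.0%, 43.6%, 55.2%, 67.7% and 84.6%. The summed UMIs moved far less between the classes for Ighv9-3, which kept 31% to 31.9% of them, and for Ighv9-1, which held 35.1% to 39.3%. Ighv1-11 held 17.9%, 14.2%, 13%, 11.4% and 8.56% of the summed UMIs, from the shallowest class to the deepest. Of the 954 barcodes with at least 50 heavy V UMIs, 59 had no Ighv1-11 UMI and the highest Ighv1-11 share was 78.0%, around a median of 9.18%. In the 13 Ighv1-11-led barcodes of that depth the Ighv1-11 share was 31% to 44.6% in 11 and 70.0% and 78.0% in the others. At that depth no member held Ighv1-11 alone.

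**Figure D2:**
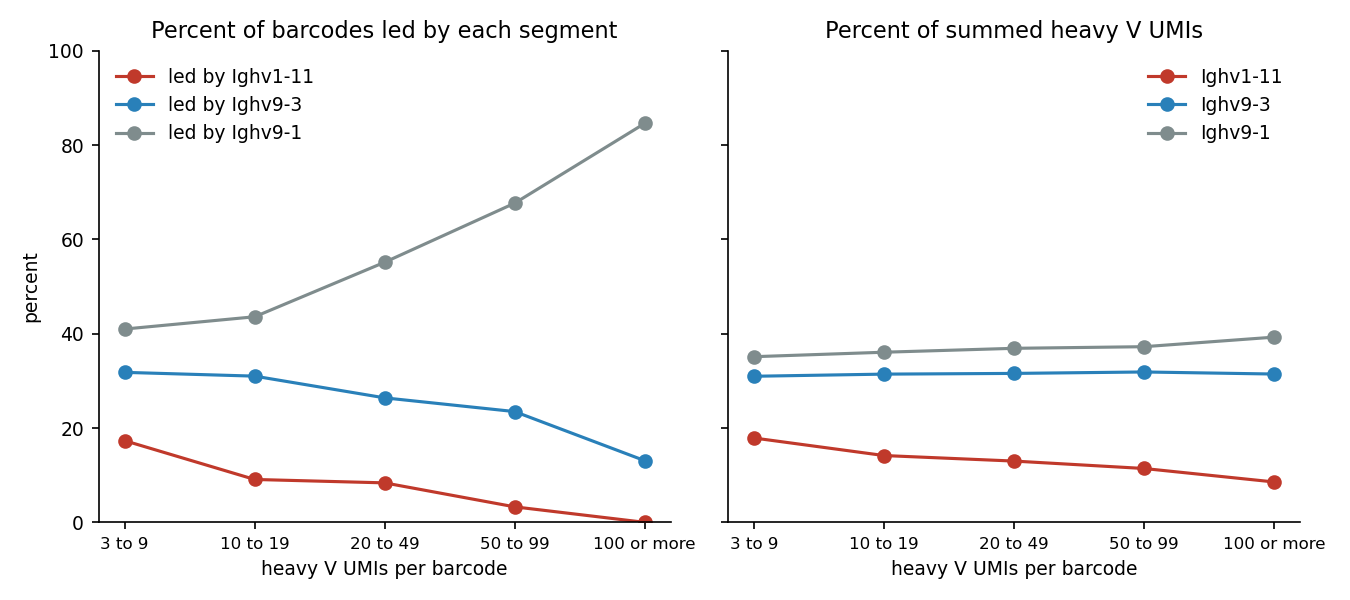
The left panel gives the percentage of barcodes led by Ighv1-11, Ighv9-3 or Ighv9-1, and the right panel the percentage of summed heavy V UMIs from each segment, in 5 classes of heavy V UMIs per barcode. The share of barcodes led by Ighv9-1 reaches 84.6% at 100 or more UMIs, while its share of the UMIs lies between 35.1% and 39.3% in every class.

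On the scale of whole transcriptomes, Ighv1-11 stood at 599 CPM in the Ighv1-11-led group, 266 CPM in the Ighv9-3-led group and 333 CPM in the Ighv9-1-led group, against 5.87 CPM in the T-cell barcodes. The 4 Ighv9 segments summed to 637, 2482 and 3435 CPM in the same order of groups. This order restates the choice of the groups by their leading segment. A single Ighm-rich barcode, described below, adds to the last value, which was 3319 CPM without it. Igkv3-1, which the rule also used, was at 6093, 8232 and 10817 CPM, against 161 CPM in the T-cell barcodes.

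The rule asked for Igkv3-1 UMIs, so that all 3 groups carry this light-chain V segment was fixed by the choice of barcodes. As a description, Igkv3-1 made up 99.8% of light V UMIs in the Ighv1-11-led group, 99.8% in the Ighv9-3-led group and 97.1% in the Ighv9-1-led group. Most of the rest in the Ighv9-1-led group was Igkv3-4, which came almost wholly from 1 barcode described below. Igkc, the kappa constant gene, was at 867 CPM in the Ighv1-11-led group, 1096 in the Ighv9-3-led group and 1204 in the Ighv9-1-led group, a log2 ratio of -0.47 for Ighv1-11-led over Ighv9-1-led. The lambda constant gene Iglc2 was at 1426, 1495 and 1521 CPM and was detected in 97.1%, 98.0% and 98.4% of barcodes, against 47.4 CPM in the T-cell barcodes. A lambda V segment was nearly absent: Iglv1 had 4, 15 and 101 UMIs in the 3 groups. The heavy J segments had no UMI in any of the groups.

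All 3 groups carried Igha as their heavy constant gene. Igha gave 967 of 969 heavy constant UMIs in the Ighv1-11-led group (99.8%), 6673 of 6699 in the Ighv9-3-led group (99.6%) and 28347 of 29151 in the Ighv9-1-led group (97.2%). Ighm, the IgM constant gene, had 2, 23 and 791 UMIs in the same groups. A single Ighv9-1-led barcode held 686 of those 791, and without it Ighm was 0.369% of the heavy constant UMIs of the Ighv9-1-led group. An Ighm UMI was seen in 2 Ighv1-11-led, 22 Ighv9-3-led and 69 Ighv9-1-led barcodes. In the T-cell barcodes Ighm was at 15.4 CPM and was seen in 10.4% of them. It was lower in the Ighv1-11-led (0.845 CPM) and Ighv9-3-led (2.603 CPM) groups. The Ighv9-1-led group had 24.7 CPM with the single barcode and 3.279 CPM without it. Outside that barcode, the Ighm levels of the groups thus lay below the free RNA level and show no Ighm expression beyond it. Ighe, the IgE constant gene, had 13 UMIs in 2 Ighv9-1-led barcodes. The groups thus had the same leading constant gene.

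The Ighm-rich barcode stood apart from the other members. It had 23835 UMIs, of which 3805 were heavy V: 1541 Ighv9-1, 1190 Ighv9-2, 712 Ighv9-3, 362 Ighv9-4 and no Ighv1-11. It held 1 Igha UMI, 341 Jchain UMIs and 10 Igkv3-1 UMIs, the lowest number the rule allows, while it carried nearly all of the 9746 Igkv3-4 UMIs of the members. Xbp1 and Mzb1, which serve antibody secretion, had 20 and 22 UMIs in it, and the B-cell surface gene Ms4a1 had none. The same barcode sequence occurred in the pBIC library with 1171 UMIs, 612 of them Igkv3-4 and 69 Ighm. Where its transcripts decide a value below, the value without it is given as well.

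Igha was lower in the Ighv1-11-led group, but it lies on the same heavy-chain transcripts as the V segments that chose the groups. All heavy V segments summed to 1239, 2754 and 3774 CPM in the Ighv1-11-led, Ighv9-3-led and Ighv9-1-led groups, the last with the Ighm-rich barcode. The order of Igha, here and in the classes below, is thus not independent of that choice. Igha stood at 409 CPM (383 to 435) in the Ighv1-11-led group, 755 CPM (737 to 774) in the Ighv9-3-led group and 885 CPM (874 to 895) in the Ighv9-1-led group, against 40.6 CPM in the T-cell barcodes. The quartiles of the barcodes' own Igha levels were 248, 381 and 537 CPM in the Ighv1-11-led group, 399, 646 and 963 CPM in the Ighv9-3-led group, and 510, 769 and 1066 CPM in the Ighv9-1-led group. The barcodes of the groups thus overlapped, with the upper quartile of the Ighv1-11-led group near the lower quartile of the Ighv9-1-led group. The log2 ratio was -1.11 (-1.21 to -1.02) for Ighv1-11-led over Ighv9-1-led, -0.89 (-0.98 to -0.79) for Ighv1-11-led over Ighv9-3-led and -0.23 (-0.27 to -0.19) for Ighv9-3-led over Ighv9-1-led. An Igha UMI was present in 95%, 95.9% and 97.5% of barcodes, and in 83.2%, 90.1% and 94.4% after 5000 UMIs were drawn from each.

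Jchain followed the same order. It was at 644 CPM (612 to 677) in the Ighv1-11-led group, 1050 CPM (1029 to 1072) in the Ighv9-3-led group and 1138 CPM (1126 to 1149) in the Ighv9-1-led group, against 31.3 CPM in the T-cell barcodes. Log2 ratios were -0.82 (-0.90 to -0.75) for Ighv1-11-led over Ighv9-1-led, -0.71 (-0.79 to -0.63) for Ighv1-11-led over Ighv9-3-led and -0.12 (-0.15 to -0.08) for Ighv9-3-led over Ighv9-1-led. Set against other immunoglobulin transcripts, the order depended on the partner. Per 100 Igkv3-1 UMIs there were 6.71 Igha UMIs in the Ighv1-11-led group, 9.17 in the Ighv9-3-led group and 8.18 in the Ighv9-1-led group, whereas per 100 heavy V UMIs there were 33.0, 27.4 and 23.4. Jchain per 100 Igkv3-1 UMIs was 10.6, 12.8 and 10.5. The leading segment held at least 80% of heavy V UMIs in only 14 Ighv1-11-led and 9 Ighv9-1-led barcodes. In these the log2 ratios for Ighv1-11-led over Ighv9-1-led were 0.21 (-0.56 to 1.06) for Igha and 0.42 (-0.29 to 1.21) for Jchain.

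Igha was also lowest in the Ighv1-11-led group within classes of depth. In barcodes with under 10000 UMIs, Igha was at 410, 735 and 666 CPM in the Ighv1-11-led, Ighv9-3-led and Ighv9-1-led groups. From 10000 to under 20000 UMIs it was at 479, 633 and 739 CPM, from 20000 to under 30000 at 391, 777 and 927 CPM, and at 30000 or more at 369, 812 and 918 CPM. In the shallowest of these 4 classes the Ighv9-3-led group was above the Ighv9-1-led group. Jchain was also lowest in the Ighv1-11-led group in each class, at 782, 1213 and 1229 CPM in the shallowest class and 587, 1037 and 1129 CPM in the deepest.

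**Figure D3:**
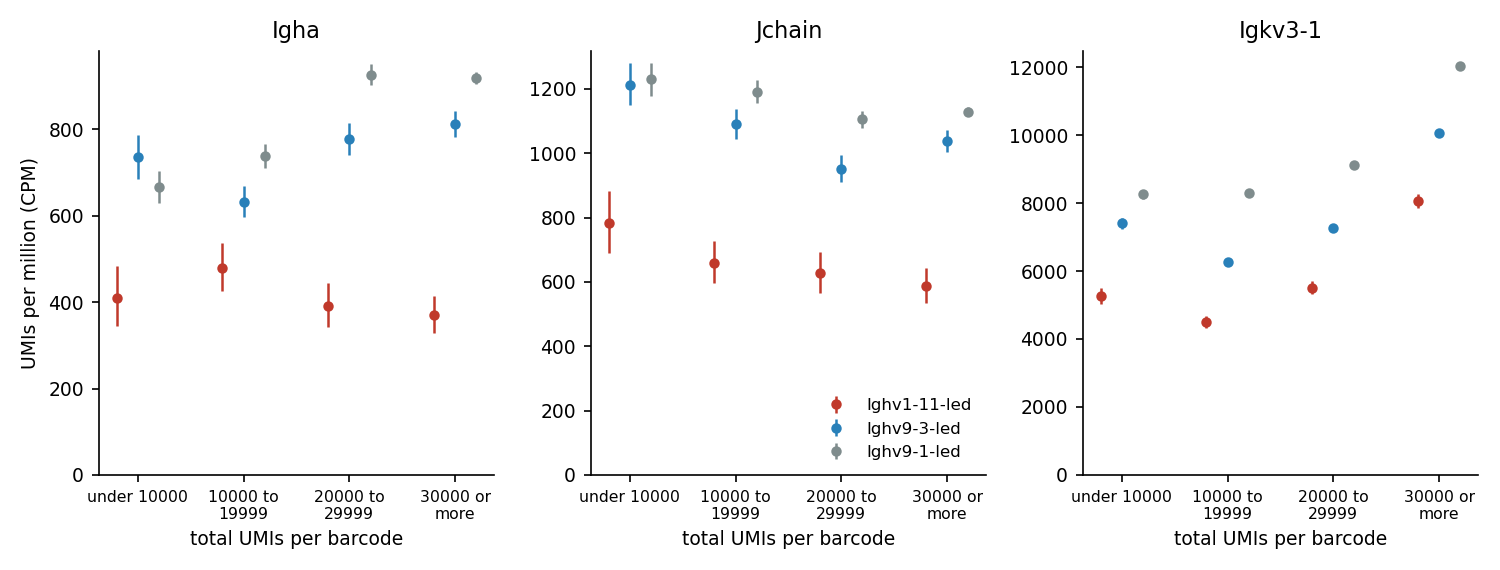
Levels of Igha, Jchain and Igkv3-1 in CPM, with 95% Poisson intervals, for the Ighv1-11-led, Ighv9-3-led and Ighv9-1-led groups in 4 classes of total UMIs per barcode. The Ighv1-11-led points are lowest in every class for Igha and Jchain, at 369 CPM of Igha against 918 CPM in the Ighv9-1-led group at 30000 or more UMIs.

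The Ighv1-11-led group had the lowest mitochondrial share, a measure the rule limited only from above. Mitochondrial transcripts made up a median of 0.571% of UMIs in Ighv1-11-led barcodes, 1.84% in Ighv9-3-led barcodes and 1.79% in Ighv9-1-led barcodes. Barcodes with under 1% numbered 85 of 140 (60.7%), 103 of 512 (20.1%) and 195 of 1300 (15.0%). All 13 mitochondrial genes were lower in the Ighv1-11-led than in the Ighv9-1-led group, by log2 ratios from -0.92 to -0.48. Ribosomal protein genes took like shares of 33.2%, 33.5% and 31.3% of UMIs.

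Across all 2132 barcodes that met the rule, the Ighv9 level was lowest where the mitochondrial share was lowest, and it did not rise further beyond 2%. In 6 classes of mitochondrial share with limits at 0.25%, 0.5%, 1%, 2% and 3%, Ighv1-11 led 35.2%, 23.9%, 10.0%, 3.13%, 4.05% and 2.0% of the barcodes, from the lowest class to the highest. The Ighv9 sum was 925, 1525, 3342, 3218, 3023 and 2909 CPM in the same classes. Without the Ighm-rich barcode, which lies in the 0.5% to 1% class, that class had 2087 CPM in place of 3342, and the sum was then higher in each successive class up to 2%. Ighv1-11 itself was at 338, 349, 300, 352, 320 and 244 CPM, in no such order. Igha ran from 391 CPM in the lowest class to 940 CPM in the highest, and Ube2c, a gene of mitosis, from 250 to 39.8 CPM. The part of mitochondrial share in the differences between the groups was not tested. Among the genes named below, values by mitochondrial share are given for some. Of all 55 ratios of genes named by rule and Igha, 53 were past 2-fold over all members. With at least 1% mitochondrial UMIs 20 were, and 54 kept their sign. All but the Igha ratios were named for being past 2-fold over all members, so the 53 was largely set by the naming rule. Ratios picked in this way can shrink in any part of the same barcodes.

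**Figure D4:**
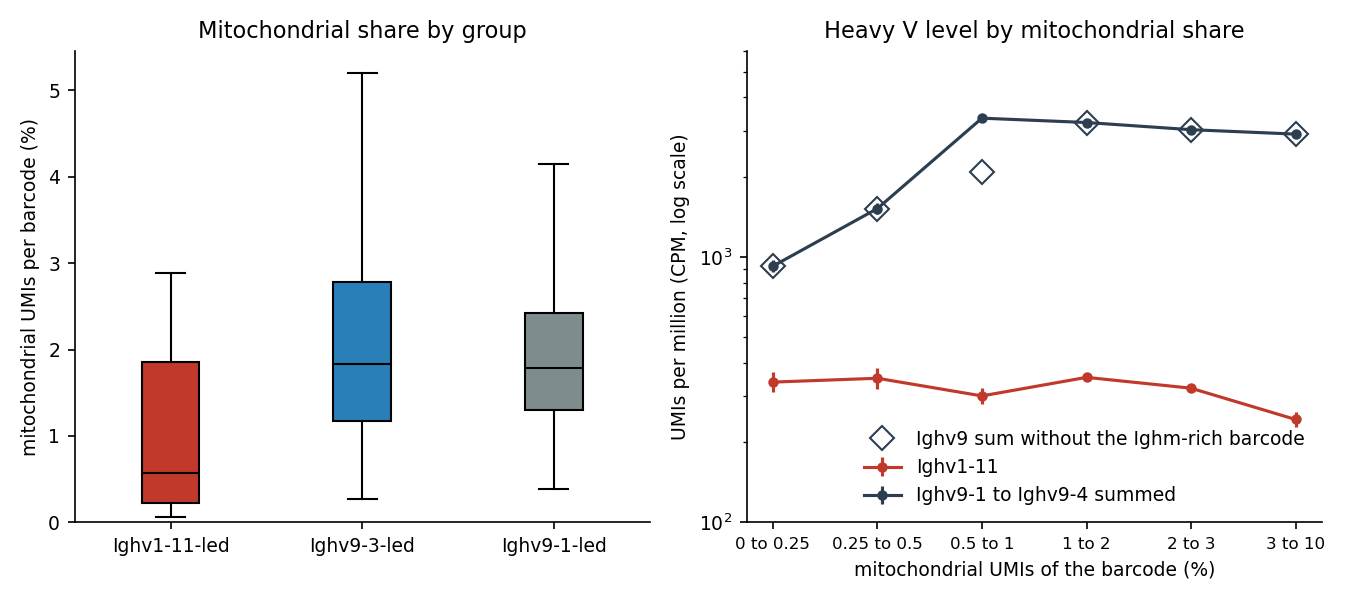
The left panel shows the mitochondrial percentage of UMIs per barcode in the Ighv1-11-led, Ighv9-3-led and Ighv9-1-led groups, with boxes from the first to the last quartile, a line at the median (0.571%, 1.84% and 1.79%) and whiskers from the 5th to the 95th percentile. The right panel covers all barcodes that met the rule. It shows Ighv1-11 and the sum of the Ighv9 segments in CPM on a log axis by class of mitochondrial share. Open diamonds give the Ighv9 sum without the Ighm-rich barcode. The diamonds climb from 925 CPM through 1525 and 2087 to 3218 CPM in the first 4 classes, and Ighv1-11 does not.

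Igha stayed lower in the Ighv1-11-led group on either side of 1% mitochondrial UMIs. With at least 1%, in 55, 409 and 1105 barcodes, Igha was at 465, 806 and 908 CPM in the Ighv1-11-led, Ighv9-3-led and Ighv9-1-led groups, and Jchain at 646, 1038 and 1137 CPM. With under 1%, Igha was at 361, 430 and 647 CPM and Jchain at 642, 1125 and 1138 CPM. The Ighm-rich barcode lies among the last of these, and without it the Ighv9-1-led group had 652 CPM of Igha and 1029 CPM of Jchain under 1%, with Jchain then below its level in the Ighv9-3-led group. The gap in Igha between the Ighv1-11-led and Ighv9-3-led groups was smaller under 1% than at or above it.

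Few genes separated the Ighv9-3-led from the Ighv9-1-led group, and more separated the Ighv1-11-led group from each of them. A gene was counted when it had at least 50 UMIs over the pair of groups, the ratio reached 2-fold and the counting interval excluded no difference, leaving out Ighv genes and Igkv3-1. In the Ighv1-11-led group against the Ighv9-1-led group, 42 of 10325 genes were higher (0.407%) and 424 lower (4.11%), together 4.51%. Against the Ighv9-3-led group, 50 of 8568 genes were higher (0.584%) and 302 lower (3.52%), together 4.11%. In the Ighv9-3-led group against the Ighv9-1-led group, 90 of 10634 genes were higher (0.846%) and 71 lower (0.668%), together 1.51%. Each group enters 2 of these 3 comparisons, so the counts are not independent. The groups also differ in size, with 2366250 UMIs in the Ighv1-11-led, 8836110 in the Ighv9-3-led and 32046353 in the Ighv9-1-led group. By counting alone, ratios of the smallest group scatter most. With at least 200 UMIs over the pair, 282 of 8120, 85 of 5137 and 37 of 8471 genes were past 2-fold, with the comparisons in the order above. With the mean of per-barcode levels in place of pooled levels, the Ighv9-3-led group had 85 genes higher and 158 lower than the Ighv9-1-led group, and the Ighv1-11-led group 131 higher and 376 lower than the Ighv9-3-led group. The median log2 ratio of all measured genes was -0.10 for Ighv1-11-led over Ighv9-1-led, -0.01 for Ighv1-11-led over Ighv9-3-led and -0.08 for Ighv9-3-led over Ighv9-1-led. The excess of lower genes in the Ighv1-11-led group did not hold where the leader had over 50% of a barcode's heavy V UMIs. In those barcodes it had 298 genes higher and 187 lower than the Ighv9-3-led group. Against the Ighv9-1-led group 159 were higher and 213 lower there, a much smaller excess.

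Of 16 mitosis genes, Ube2c and Aurka were past 2-fold higher and Hmmr past 2-fold lower in the Ighv1-11-led group against the Ighv9-1-led group. Ube2c, which serves the complex that ends mitosis, was at 221 CPM in the Ighv1-11-led group, 93.9 in the Ighv9-3-led group and 110 in the Ighv9-1-led group, a log2 ratio of 1.01 (0.87 to 1.14) for Ighv1-11-led over Ighv9-1-led. Aurka, a kinase of the mitotic spindle, was at 42.3, 16.4 and 20.0 CPM, a ratio of 1.08 (0.76 to 1.39). Ccnf, a cyclin, was at 28.7, 13.2 and 13 CPM, a ratio of 1.14 (0.75 to 1.51). Other mitotic genes were below 2-fold against the Ighv9-1-led group and past it against the Ighv9-3-led group. Ccnb1, the mitotic cyclin B1, was at 182, 76.7 and 101 CPM, with log2 ratios of 0.85 over Ighv9-1-led and 1.24 over Ighv9-3-led. Plk1, a kinase of mitotic entry, was at 56.6, 23.2 and 29.1 CPM, with ratios of 0.96 and 1.29. Cdk1, the partner of cyclin B1, was at 103, 48.6 and 54.8 CPM, with ratios of 0.91 and 1.08. A Ube2c UMI was present in 50.7% of Ighv1-11-led, 37.9% of Ighv9-3-led and 46.5% of Ighv9-1-led barcodes, and in 36.0%, 22.2% and 22.7% at 5000 UMIs each.

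In Ighv1-11-led over Ighv9-1-led, 2 of 16 mitosis genes were thus past 2-fold higher, where 0.407% of all measured genes were, and 1 was lower, where 4.11% were. The median log2 ratio of the list was 0.55 against -0.10 for all measured genes, and 13 of 16 were above 0. Hmmr, which binds spindle microtubules, was at 10.6, 15.4 and 21.7 CPM in the Ighv1-11-led, Ighv9-3-led and Ighv9-1-led groups, and Mki67, the marker of cycling cells, had a log2 ratio of -0.85 (-1.07 to -0.65) for Ighv1-11-led over Ighv9-1-led. The list was therefore not uniform. Of 16 S phase genes, which serve DNA replication, none was past 2-fold in that comparison, the median was 0.36 and all 16 were above 0. Over the Ighv9-3-led group, 1 S phase gene (Cdc6, which licenses replication origins) and 5 mitosis genes were past 2-fold higher, where 0.584% of all measured genes were, with medians of 0.71 and 0.68 against -0.01 for all genes. For Ighv9-3-led over Ighv9-1-led no gene of either list was past 2-fold, with medians of -0.28 and -0.21.

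Several of these ratios were smaller in barcodes with more mitochondrial transcripts, and 1 changed sign within counting error. With at least 1% mitochondrial UMIs, Ube2c was at 111 CPM in the Ighv1-11-led group, 83.8 in the Ighv9-3-led group and 102 in the Ighv9-1-led group. With under 1% it was at 314, 159 and 193 CPM. The log2 ratios for Ighv1-11-led over Ighv9-1-led with at least 1% were 0.13 (-0.14 to 0.39) for Ube2c, 0.30 (-0.34 to 0.87) for Aurka and 0.48 (-0.27 to 1.14) for Ccnf. These intervals include no difference. Over the Ighv9-3-led group the ratios with at least 1% were 0.58 (0.28 to 0.87) for Ccnb1 and 0.72 (0.15 to 1.25) for Plk1. Cdk1 was at -0.28 (-0.80 to 0.20) there, an interval that also includes no difference. Among barcodes of 10000 to under 30000 UMIs the ratios over Ighv9-1-led were larger, at 1.61 for Ube2c, 1.74 for Aurka and 1.81 for Ccnf.

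Of 9 genes that the naming rule allowed as higher in Ighv1-11-led over Ighv9-1-led, the others were Aunip, a partner of Aurora A (log2 ratio 1.14), Ubd, a ubiquitin-like protein (1.34), and Oxnad1 (1.13), Cabcoco1 (1.02), Tbc1d2b (1.01) and Hmga1b (1.0). Ubd was at 15.2, 8.04 and 6.02 CPM in the Ighv1-11-led, Ighv9-3-led and Ighv9-1-led groups, and its ratio was 1.13 with at least 1% mitochondrial UMIs. The last 4 rest on few UMIs in the Ighv1-11-led group, between 16 and 29 each. Over the Ighv9-3-led group 19 genes were allowed, among them Kpna2, a nuclear import receptor (1.04), Cdc20, an activator of mitotic exit (1.08), Gemin6, which helps to assemble splicing particles (1.12), Dnajb1, a heat shock protein (1.07), and the noncoding RNA Lockd (1.05).

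Of 14 measured genes of the unfolded protein response, 1 was past 2-fold lower in the Ighv1-11-led group against the Ighv9-1-led group, where 4.11% of all measured genes were lower. This was Hspa5, the main chaperone of the endoplasmic reticulum, which was at 275 CPM in the Ighv1-11-led group, 460 in the Ighv9-3-led group and 558 in the Ighv9-1-led group, a log2 ratio of -1.02 (-1.14 to -0.91) for Ighv1-11-led over Ighv9-1-led. Sec63, part of the channel through which proteins enter this compartment, was at 26.6, 59.2 and 64.0 CPM (-1.26). Hspa13, another chaperone, was at 1.69, 9.51 and 10.9 CPM (-2.69, from 4 UMIs in the Ighv1-11-led group). The median of the unfolded protein response list was -0.67, against -0.10 for all measured genes, and 1 gene was above 0. With at least 1% mitochondrial UMIs the ratio of Sec63 was -0.70 and that of Hspa13 -2.01. Pdia6, which forms disulphide bonds, was at 189, 285 and 351 CPM (-0.89), and Hsp90b1, a chaperone counted here with 20 plasma cell and secretion genes, was at 366, 535 and 696 CPM (-0.93). None of those 20 was past 2-fold, with a median of -0.49 and 4 above 0. Hspa5 was at 395, 491 and 570 CPM with at least 1% mitochondrial UMIs and at 173, 261 and 445 CPM with under 1%, so that its ratio for Ighv1-11-led over Ighv9-1-led was -0.53 in the barcodes with at least 1%.

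Of 17 B-cell identity genes, 1 was past 2-fold lower in the Ighv1-11-led group against the Ighv9-1-led group, and of 20 MHC genes none, where 4.11% of all measured genes were lower. Ms4a1, which encodes CD20, was at 156 CPM in the Ighv1-11-led group, 292 in the Ighv9-3-led group and 300 in the Ighv9-1-led group, a log2 ratio of -0.95 (-1.10 to -0.80) for Ighv1-11-led over Ighv9-1-led. Cd74, the invariant chain that guides MHC class II molecules, was at 6508, 10690 and 10253 CPM (-0.66). The B-cell identity gene past 2-fold was the low-affinity IgE receptor Fcer2a at 11, 25.7 and 27.4 CPM (-1.32), and that list had a median of -0.50 and 1 gene above 0. None of 10 MHC class II genes was past 2-fold, but all 10 were below 0, with a median of -0.48. The 10 MHC class I genes had none past 2-fold and a median of -0.63. With at least 1% mitochondrial UMIs, Ms4a1 was at 243, 310 and 311 CPM and Cd74 at 10479, 11223 and 10532 CPM, and with under 1% Cd74 was at 3125, 7262 and 7429 CPM. The gap in Cd74 was therefore found mainly in barcodes with few mitochondrial transcripts.

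The other genes named by rule as lower in Ighv1-11-led over Ighv9-1-led have varied roles. Il4i1, an amino acid oxidase of activated B cells, was at 81.6 CPM in the Ighv1-11-led group, 222 in the Ighv9-3-led group and 209 in the Ighv9-1-led group, with a log2 ratio of -1.36 (-1.57 to -1.15) for Ighv1-11-led over Ighv9-1-led. An Il4i1 UMI was found in 39.3%, 63.9% and 69.1% of barcodes, against 8.68 CPM in the T-cell barcodes. Cd81, part of the B-cell coreceptor, was at 17.7, 46.3 and 51.3 CPM (-1.53). Mir155hg, the host transcript of miR-155, was at 30.4, 69.5 and 73.7 CPM (-1.28). Onecut2, a transcription factor that earlier results of these data had listed among genes of the pBIC10 lymphoma cells, was at 43.5, 102 and 97.0 CPM (-1.16) and at 5.09 CPM in the T-cell barcodes. Ctsa, a lysosomal peptidase, was at 31.3, 75.9 and 74.8 CPM (-1.26), Cep350, a centrosomal protein, at 9.72, 22.4 and 28.1 CPM (-1.53), and Zfp397 at 5.07, 13.8 and 16.3 CPM (-1.68). With at least 1% mitochondrial UMIs the log2 ratios of these 7 genes were -0.86, -1.38, -0.76, -0.66, -0.67, -0.81 and -0.87 in the order given. The interval of the last, Zfp397, was -1.93 to 0.026 and includes no difference, unlike those of the others.

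Of all measured genes, 4.11% were past 2-fold lower and 0.407% higher in Ighv1-11-led over Ighv9-1-led. In lists of 8 to 18 genes, 1 lower gene or none is thus near that share and says little about a list. In the other lists a few members passed 2-fold in this comparison. These were Cd81 among 15 B-cell receptor signalling genes (median -0.11), S1pr1, a receptor for leaving lymphoid organs, among 14 homing genes (-1.28, median -0.67), the costimulatory ligand Tnfsf4 among 14 costimulatory and inhibitory ligands (-1.73, median -0.57) and the glucose transporter Slc2a1 among 14 metabolism genes (-1.10, median 0.09). Of 14 chemokine and cytokine genes (median -0.38), Cxcl10 was lower (-1.36) and Ccl5 higher (1.02). Ccl5 stood at 10472 CPM in the T-cell barcodes. Of 8 genes taken from earlier results on these lymphoma cells, Onecut2 alone was past 2-fold (median -0.51), and their choice on these data makes the list no independent evidence. No gene passed 2-fold among 14 NF-kappaB targets (median -0.27), 11 interferon response genes (-0.27), 14 survival genes (-0.06), 10 germinal centre genes (0.05), 14 genes of isotype switching (-0.04) and 18 MYC-related and other transcription factors (-0.05). All these medians stand beside -0.10 for all measured genes.

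**Figure D5:**
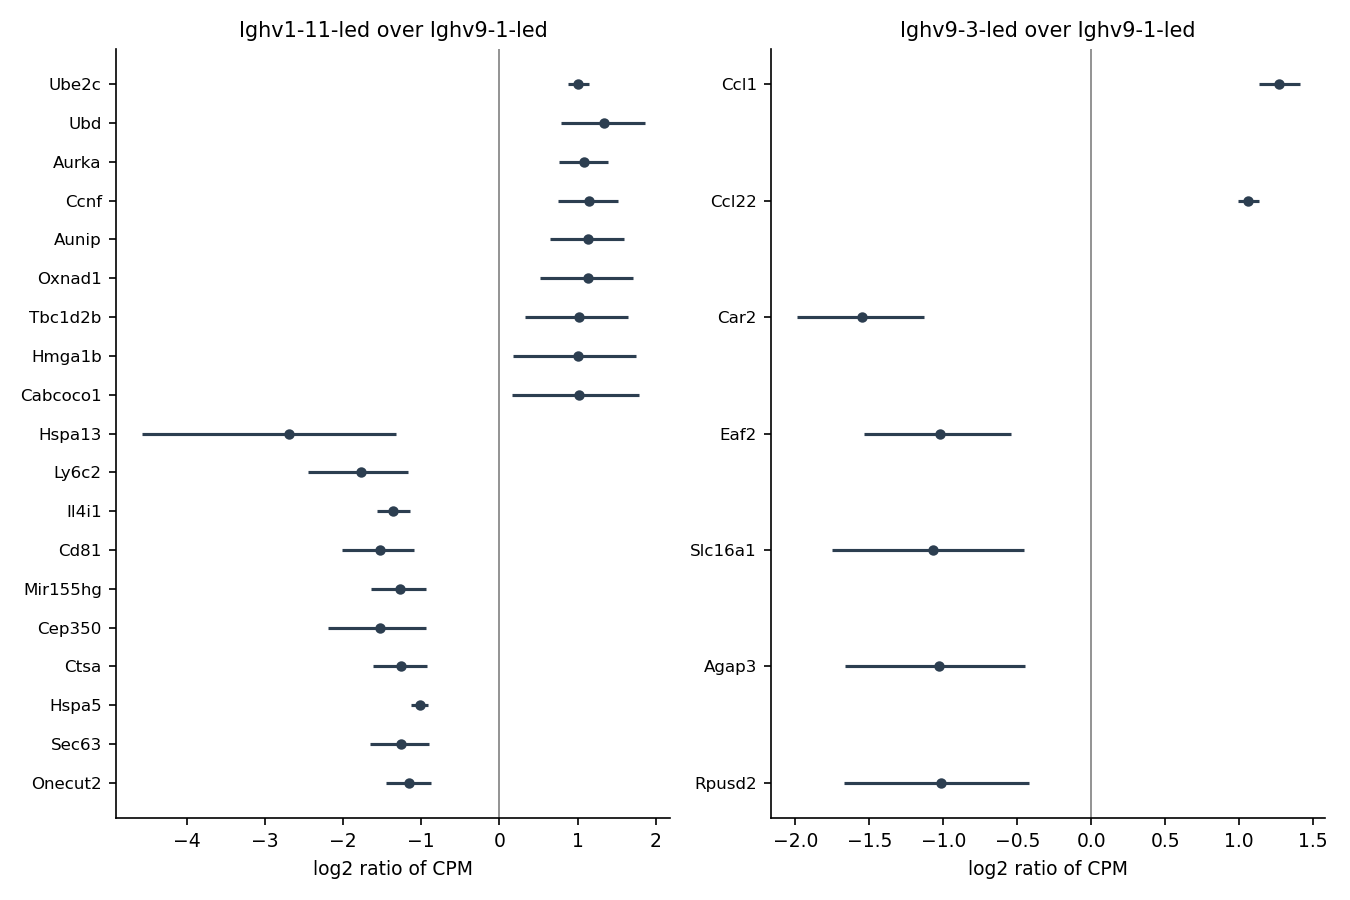
Log2 ratios of pooled levels with 95% counting intervals for the genes named by rule, Ighv1-11-led over Ighv9-1-led (9 higher and the first 10 lower) and Ighv9-3-led over Ighv9-1-led (2 higher and 5 lower). In the first comparison Ube2c is at 1.01 and Il4i1 at -1.36, and in the second Ccl1 is at 1.27 and Ccl22 at 1.06.

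Between the Ighv9-3-led and Ighv9-1-led groups the genes that stood out by rule were few, with 2 higher and 5 lower. The T-cell attracting chemokine genes Ccl1 and Ccl22 were the 2 higher ones. Ccl1 was at 80.0 CPM in the Ighv9-3-led group and 33.2 CPM in the Ighv9-1-led group, a log2 ratio of 1.27 (1.13 to 1.41), with UMIs in 24.2% and 18.2% of barcodes. Ccl22 was at 297 and 142 CPM, a ratio of 1.06 (0.99 to 1.13), with UMIs in 51.8% and 44.7% of barcodes. The Ighv1-11-led group had 16.5 CPM of Ccl1 and 160 CPM of Ccl22, and the T-cell barcodes 11.6 and 18.0 CPM. Among barcodes of 10000 to under 30000 UMIs the ratios for Ighv9-3-led over Ighv9-1-led were 0.70 for Ccl1 and 0.51 for Ccl22, so both were below 2-fold there. With at least 1% mitochondrial UMIs they were 1.21 and 0.94.

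Of 14 chemokine and cytokine genes, 1 was past 2-fold higher (Ccl22), where 0.846% of all measured genes were, with a median of 0.31 and 10 above 0. Ebi3, a subunit shared by interleukin-27 and interleukin-35, was at 169 CPM in the Ighv9-3-led group and 115 CPM in the Ighv9-1-led group (0.56). The 5 lower genes were Car2, a carbonic anhydrase, at 5.77 and 16.9 CPM (-1.55), Eaf2, a partner of transcription elongation factors, at 4.53 and 9.17 CPM (-1.02), the lactate transporter Slc16a1 at 2.72 and 5.71 CPM (-1.07), Agap3 at 3.06 and 6.24 CPM (-1.03) and Rpusd2 at 2.94 and 5.96 CPM (-1.02). Car2 was at -0.57 in barcodes of 10000 to under 30000 UMIs. MHC class II genes (median 0.02) and B-cell identity genes (-0.04) had no member past 2-fold in this comparison.

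For Ighv1-11-led over Ighv9-3-led, 117 genes were eligible as lower. Ccl1 was furthest by rank (-2.28), and Il4i1 (-1.45), Lpl (-1.90), Onecut2 (-1.23), Ctsa (-1.28) and Anxa2, a membrane-binding protein (-1.30), were among the first 12, as were Plec, a cytoskeletal linker (-2.09), Ttyh3 (-2.06) and Cst7, a protease inhibitor (-1.59). Cst7, Plec and Anxa2 stood at 316, 111 and 875 CPM in the T-cell barcodes, above their levels in each group of members.

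Neutrophil transcripts moved with some of these results. The neutrophil markers summed to 684 CPM in the Ighv1-11-led group, 1700 CPM in the Ighv9-3-led group and 689 CPM in the Ighv9-1-led group, against 1560 CPM in the T-cell barcodes. Of 10 neutrophil genes 6 were past 2-fold higher in Ighv9-3-led over Ighv9-1-led, where 0.846% of all measured genes were. The UMIs of the neutrophil markers were concentrated, with 92.2% of those of the Ighv9-3-led group in 26 of its 512 barcodes. Monocyte and macrophage markers summed to 395, 684 and 552 CPM, T-cell markers to 56.6, 101 and 83.3 CPM and dendritic markers to 8.03, 14.5 and 12.3 CPM. Chil3, a gene of myeloid cells, was at 86.2, 317 and 181 CPM. Without barcodes that had markers of other cell types, its log2 ratio for Ighv1-11-led over Ighv9-1-led was 0.54 in place of -1.07, that of Ly6c2 was -0.56 in place of -1.77, and that of Ifitm3 over the Ighv9-3-led group was -0.05 in place of -1.25. In the same barcodes Ccl1 and Ccl22 kept ratios of 1.17 and 0.96 for Ighv9-3-led over Ighv9-1-led, Il4i1 and Hspa5 kept -1.40 and -0.91 for Ighv1-11-led over Ighv9-1-led, and Ube2c kept 1.04.

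The smallest count behind a leader was 3 UMIs, so barcodes just inside and just outside that limit are described here. The 167 barcodes whose leading segment had exactly 3 UMIs had 412 CPM of Igha, 745 CPM of Jchain and a median of 5693 UMIs. The 181 barcodes with exactly 2 had 380 CPM of Igha, 620 CPM of Jchain and a median of 4468 UMIs. At the limit on Igkv3-1, 22 barcodes with exactly 10 UMIs had 505 CPM of Igha, and 17 with exactly 9 had 305 CPM.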

How the data were processed

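Gene expression was measured in 1 pBIC10 and 1 pBIC spleen by 10x 5' libraries, and only the pBIC10 library enters the comparisons. The values are UMI counts that the authors obtained with Cell Ranger and deposited, unnormalized, as a matrix of genes by barcodes. Per the submitters' processing notes this was version 3.0.1 on the genome build GRCm39, but per the file headers it was version 5.0.1. Cell calling had been done by the authors, so droplets without cells were not used here. The deposited contig tables hold read and UMI counts and served only to mark barcodes with a T-cell receptor contig. The pBIC10 library held 147884282 UMIs (median 5458 per barcode) and the pBIC library 166941618 (median 6235). Of the pBIC10 barcodes, 14667 passed the gene and mitochondrial filters, 2905 of them had at least 10 Igkv3-1 UMIs, and 2479 of those had no Cd3e UMI.

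UMI counts were summed over each group and divided by the group's total to give CPM, since the design has 1 library and cells are not replicates. The 95% intervals are Clopper-Pearson for a share, exact Poisson for a level and exact conditional binomial for a ratio. They were computed in Python 3.11.15 with pandas 2.3.3, numpy 2.4.6 and scipy 1.17.1 and tested on simulated data. The simulated counts were independent Poisson draws, as the intervals for ratios assume, so that test says nothing about variation between barcodes. A gene named by rule needed to be past 2-fold, at least 100 UMIs over the pair, UMIs in at least 10% of barcodes of the higher group and at most 20% of that group's UMIs from 1 barcode. Up to 12 per direction were ranked by the interval bound nearest to no difference, leaving out predicted and sex-linked genes and those of immunoglobulins, T-cell receptors, mitochondria, ribosomal proteins and haemoglobin. Members of fixed lists were named as well. Fcer2a, S1pr1, Tnfsf4, Lpl and the comparisons by mitochondrial share were singled out after their values were seen. Shares at equal depth used 5000 UMIs drawn from each of 125 Ighv1-11-led, 424 Ighv9-3-led and 1189 Ighv9-1-led barcodes, and left out 15, 88 and 111 shallower ones. Doublets were called by Scrublet in scanpy 1.11.5 (expected rate 0.08, threshold 0.3101, 2.502% of barcodes) and left out only as an alternative. TMM factors came from edgeR 4.0.16 in R 4.3.3, and figures from matplotlib 3.10.9. The members and gene lists were chosen with earlier results of these data known, and the classes of mitochondrial share, the depth limits and the barcodes left out were chosen after seeing the data. V segment sequences were not used here.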

Additional observations from a re-analysis of the deposited data

How the results depend on the processing

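No paired analysis was possible because all groups come from 1 library of 1 mouse and have no replicates. Results were recomputed with other thresholds on Igkv3-1 and on the leading segment, other scalings and count minimums, and without doublet calls, shared barcodes or barcodes with other cell types' markers. Of the summary values under these alternatives 131 stayed within their counting interval or within 1.5 times the reported count, 79 moved and 2 reversed. Of the other values, mostly but not all ratios of named genes, 687 stayed, 297 moved and 7 reversed. The causes were not tested.

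Asking for at least 80% of heavy V UMIs from the leader left 14 Ighv1-11-led, 8 Ighv9-3-led and 9 Ighv9-1-led barcodes. There the Igha share of heavy constant UMIs was 98.7% (93.1 to 100), 85.7% (42.1 to 99.6) and 100% (80.5 to 100). The Ighm share was 1.27% (0.032 to 6.85), 14.3% (0.361 to 57.9) and 0.0% (0.0 to 19.5), so these shares rest on few UMIs. The Jchain log2 ratio reversed to 0.42 (-0.29 to 1.21) for Ighv1-11-led over Ighv9-1-led and 1.53 (0.61 to 2.47) for Ighv9-3-led over Ighv9-1-led. Igha reversed to 0.21 for Ighv1-11-led over Ighv9-1-led and 0.58 over Ighv9-3-led, Aurka to -0.22 over Ighv9-3-led and Tbc1d2b to -1.57 over Ighv9-1-led. Genes past 2-fold numbered 246 for Ighv1-11-led over Ighv9-1-led (140 higher, 106 lower), 48 over Ighv9-3-led (31 higher, 17 lower) and 87 for Ighv9-3-led over Ighv9-1-led.

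A leader over 50% left 64, 102 and 166 barcodes of the Ighv1-11-led, Ighv9-3-led and Ighv9-1-led groups, with Igha shares of 99.1% (Ighv9-3-led) and 99.4% (Ighv9-1-led), Ighm shares of 0.860% and 0.585%, a Jchain ratio of -0.57 for Ighv1-11-led over Ighv9-1-led, an Igha ratio of 0.00352 for Ighv9-3-led over Ighv9-1-led and 61 genes past 2-fold in that comparison. With a leader over 50%, the Ighv1-11-led group had 159 genes higher and 213 lower than the Ighv9-1-led group, against 42 and 424 as reported. Against the Ighv9-3-led group the split turned, with 298 higher and 187 lower in place of 50 and 302. A leading count of at least 10 left 54 Ighv1-11-led and 274 Ighv9-3-led barcodes. The Ighv1-11-led group then had an Igha share of 100% and an Ighm share of 0.0%.

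Barcodes of 10000 to under 30000 UMIs numbered 65, 219 and 506, with Igha shares of 100% (Ighv1-11-led) and 92.3% (Ighv9-1-led), Ighm shares of 0.0% and 7.70%, where the Ighv9-1-led values were 99.7% and 0.326% without the Ighm-rich barcode, a Jchain ratio of -0.16 for Ighv9-3-led over Ighv9-1-led, and 745 genes past 2-fold for Ighv1-11-led over Ighv9-1-led and 77 for Ighv9-3-led over Ighv9-1-led. At least 50 Igkv3-1 UMIs left 65 Ighv1-11-led and 305 Ighv9-3-led barcodes, with Jchain ratios of -0.62 for Ighv1-11-led over Ighv9-1-led and -0.052 for Ighv9-3-led over Ighv9-1-led, an Igha share of 99.6% and an Ighm share of 0.341% in the Ighv9-1-led group, and 306 genes for Ighv1-11-led over Ighv9-1-led.

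At least 1% mitochondrial UMIs left 55 Ighv1-11-led barcodes, with shares of 100% Igha and 0.0% Ighm there and 99.6% and 0.369% in the Ighv9-1-led group, 284 genes for Ighv1-11-led over Ighv9-1-led and 214 over Ighv9-3-led, and a Cdk1 ratio of -0.28 over Ighv9-3-led. Of 55 named ratios 54 kept their sign, and 20 were past 2-fold, against 53 as reported, a number largely set by the naming rule. Without the Ighm-rich barcode, the Ighv9-1-led group had 99.6% Igha and 0.369% Ighm, and without barcodes shared with pBIC 99.7% and 0.248%. Without barcodes with other cells' markers, Igha was 100% and Ighm 0.0% in the Ighv1-11-led group and 99.6% and 0.349% in the Ighv9-1-led group, the Jchain ratio -0.71 for Ighv1-11-led over Ighv9-1-led, and 306 genes were past 2-fold there, 219 over Ighv9-3-led and 72 for Ighv9-3-led over Ighv9-1-led. The Chil3 ratio became 0.54.

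Means of per-barcode values gave Igha shares of 99%, 99.4% and 99.3% and Ighm shares of 0.995%, 0.591% and 0.689% in the Ighv1-11-led, Ighv9-3-led and Ighv9-1-led groups, Jchain ratios of -0.72 for Ighv1-11-led over Ighv9-1-led and -0.072 for Ighv9-3-led over Ighv9-1-led, and 783 and 243 genes in those comparisons. TMM factors gave a Jchain ratio of -0.056 for Ighv9-3-led over Ighv9-1-led. A 1.5-fold limit gave 1244, 1111 and 413 genes for Ighv1-11-led over Ighv9-1-led, Ighv1-11-led over Ighv9-3-led and Ighv9-3-led over Ighv9-1-led, a minimum of 200 UMIs 282, 85 and 37, and a minimum of 20 UMIs 274 in the last. Depth limits Ighm, seen in 2 Ighv1-11-led barcodes, and every ratio that rests on few Ighv1-11-led UMIs.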

Other observations

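T-cell genes were not at 0 throughout the members. Cd8b1, the beta chain of the CD8 coreceptor, was at 241 CPM in the Ighv1-11-led group, 389 CPM in the Ighv9-3-led group and 345 CPM in the Ighv9-1-led group, against 666 CPM in the T-cell barcodes of the same library. Cd8a, the alpha chain, was at 6.76, 24.4 and 15.2 CPM, against 428 CPM in the T-cell barcodes. At 5000 UMIs per barcode, a Cd8b1 UMI was present in 57.6%, 77.6% and 76.9% of barcodes of the 3 groups. Cd3g, a chain of the T-cell receptor complex, was at 42.3, 66.5 and 60.5 CPM, against 852 CPM in the T-cell barcodes, while its neighbour in that complex Cd3d was at 5.07, 7.92 and 5.06 CPM, against 970 CPM. The ratio of these genes to each other in the members was thus unlike that in the T-cell barcodes.

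The lambda constant genes Iglc2, Iglc3 and Iglc1 were at 1426, 234 and 116 CPM in the Ighv1-11-led group, 1495, 220 and 88.4 CPM in the Ighv9-3-led group and 1521, 214 and 95.2 CPM in the Ighv9-1-led group, in cells whose light V UMIs were nearly all Igkv3-1. The 3 genes are closely related, so counting could split reads between them.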
